A study of Sus scrofa with 10 samples.

Results

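SOX5 and SOX6 were followed across all 10 single-cell and single-nucleus libraries of the developing pig medial entorhinal cortex (MEC), as 2 of the 22452 genes in the deposited tables. Both belong to the SOXD group of transcription factors, which bind DNA through an HMG box, pair with each other through a coiled coil and carry no activation domain of their own, so that they act by helping or hindering partner factors. In the mouse cortex SOX5 is known for its role in subplate and deep-layer projection neurons, SOX6 for its role in interneurons born in the medial ganglionic eminence, and both for holding oligodendrocyte precursors in an immature state. SOX6 is also known to keep proneural genes in check in cortical progenitors. The members were chosen by name, not by a measured value, and the question was in which cells of the entorhinal cortex each was found, at which stage, and whether they were found in the same cells.

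The samples were entorhinal tissue of farm pigs. Whole cells freed with papain from fresh tissue gave 8 libraries: 1 at embryonic day 50 (E50, 3 brains pooled), 3 at E60 (1, 1 and 2 brains), 3 at E70 (2, 1 and 1 brains by the labels, while the study's own overview of its libraries gives other numbers for E70 libraries 1 and 3) and 1 from an adult (1 brain). Nuclei from frozen tissue, sorted by a DNA stain, gave 1 library at E70 and 1 from an adult (1 brain each). The labels and the study's methods call the postnatal libraries adult, while its results give a postnatal day for them. Adult here follows the labels, and the age of these animals is uncertain. The labels used here and the study's methods name no treatment or genetic alteration of the animals. By those methods the adult brains came from sows killed for another study, and what that study did to them is not given. Since a library may hold several animals and single groups hold 1 to 3 libraries, p-values measure the spread between libraries.

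The tables held 28229 cells and 207176999 UMIs (unique molecular identifiers, each standing for 1 captured transcript), from 2336865 UMIs in the adult nuclei to 55755512 at E50. SOX5 gave 63029 UMIs in 16461 cells and SOX6 gave 49687 UMIs in 13075 cells, with 9678 cells holding both. Cell classes were rebuilt by clustering without the genes discussed here: all SOX genes were held out, no SOX gene named a class, and a class is called "like" a cell type from its markers. The clusters that met no name held 3411 cells (12.1%). E60 libraries 1 and 2 went against their label as cortex: 0 of 8171 and 0 of 3479 cells fell in the cortical excitatory-like or interneuron-like classes, which allows a share of up to 0.0367% and 0.0862%, so they enter no comparison of cortical neurons or interneurons. They enter the glial comparisons, given with and without both, and the levels of the progenitor-like and non-neural classes. The barcodes shared by pairs of libraries numbered 0 to 57, at most 1.83% of the smaller library, and none of the 455 shared barcodes had counts correlating above 0.9.

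SOX5 lies on chromosome 5 from 49159950 to 50166463 and SOX6 on chromosome 2 from 42447391 to 43068824, both on the forward strand of Sscrofa11.1, in RefSeq's annotation of that build. The identifiers in Ensembl are ENSSSCG00000000567 and ENSSSCG00000034191. SOX5 spans 1006514 bases, of which 95.3% are intronic, and SOX6 spans 621434 bases, of which 96.6% are intronic. Because the authors counted reads from introns as well as exons, unspliced transcripts add to both. In nuclei both genes took up a larger part of all UMIs: at E70, SOX5 stood at 1455 CPM (UMIs per 1000000 UMIs of the same cells) in the nuclei against 250.5 to 327 CPM in the 3 whole cell libraries, and SOX6 at 529 against 188 to 204 CPM. Levels of nuclei and whole cells are therefore given apart, and a fold between classes is taken within each library. The levels of the 2 genes are not set against each other, since they differ in length.

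SOX5 was highest in deep-layer-like cortical neurons, a class named from FEZF2, BCL11B, TBR1, TLE4, FOXP2 and ZFPM2, which are known for corticofugal and subplate neurons. It stood at 2064 CPM at E50 (309 cells), 736 CPM in E70 library 3 (37 cells) and 3662 CPM in the E70 nuclei (53 cells). The other cortical excitatory-like cells of the same libraries held 580, 189 and 1464 CPM. In each of the 3 libraries the deep-layer-like cells were therefore the higher ones, 3.14-fold in the fit (log2 difference 1.65 ± 0.25 SE, 95% interval 1.10 to 2.2, adjusted p = 0.00323 in edgeR's quasi-likelihood test with library as a block). The test called 3.13% of 12392 genes, and SOX5 was the 86th by p-value. Without library as a block the difference was 1.47 and not called (edgeR adjusted p = 1.0). SOX5 was detected in all 309 deep-layer-like cells at E50, and in 21.8% of 124 microglia-like cells of that library, the cells used here as a gauge of free RNA. Microglia-like cells held 28.4 to 170 CPM of SOX5 and 17.4 to 223 CPM of SOX6 over 8 libraries, highest in E60 library 2. One cluster, whose second-best class was astroglia (575 cells, 308 of them from E60 library 1 and 250 from E60 library 2), carried much of this, with 245 CPM of SOX5 and 362 CPM of SOX6 against 48.1 and 28.7 CPM in the other 2077 microglia-like cells. The gauge is therefore also given without that cluster, a choice made after seeing the data.

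SOX6 was not raised in these neurons. It stood at 18.3, 15.1 and 89.3 CPM in deep-layer-like cells and at 15.3, 36.2 and 141 CPM in the other cortical excitatory-like cells of the same 3 libraries, a log2 difference of -0.50 ± 0.29 SE that did not pass the test (95% interval -1.14 to 0.14, edgeR adjusted p = 0.541). Among the UMIs of both genes, SOX6 made up 1.76% ± 0.78 (SD, n = 3 libraries) in deep-layer-like cells and 9.13% ± 6.75 in the others. An exact sign-flip test over 3 libraries cannot go below 0.25, and gave that value.

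The same contrast gives the company SOX5 kept. All 8 measured genes of the deep-layer programme were higher, with the subplate and corticothalamic gene CRYM at 3.02 ± 0.32 SE on the log2 scale, FEZF2 at 2.97 ± 0.30 and NR4A2 at 2.66 ± 0.35, and 5 of 7 genes of the upper-layer programme were lower, led by POU3F2 at -3.72 ± 0.41. Apart from CRYM, NR4A2 and LHX2 these genes also named the classes, so their direction is a check of the classes and no independent evidence. Of the other SOX genes, 6 of 14 measured had counts enough to be tested and none was called, with a median log2 difference of -0.14 beside -0.05 over all genes tested. SOX13, the remaining SOXD gene, stood at 5.59 CPM in deep-layer-like, 4.74 CPM in intermediate progenitor-like and 19.2 CPM in oligodendrocyte precursor-like cells, and was highest in endothelial-like cells at 75.0 CPM (all libraries summed).

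Outside the deep layers SOX5 was present in cortical neurons at a lower level that varied with the library. The other cortical excitatory-like cells held 580 CPM at E50, 280 CPM in E60 library 3, and 386, 218 and 189 CPM in the 3 E70 libraries, with 1464 CPM in the E70 nuclei and 528 CPM in the adult nuclei. The E50 library was the highest of the whole cell libraries, but it is the only one of its stage and the step to later stages could not be tested.

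**Figure D1:**
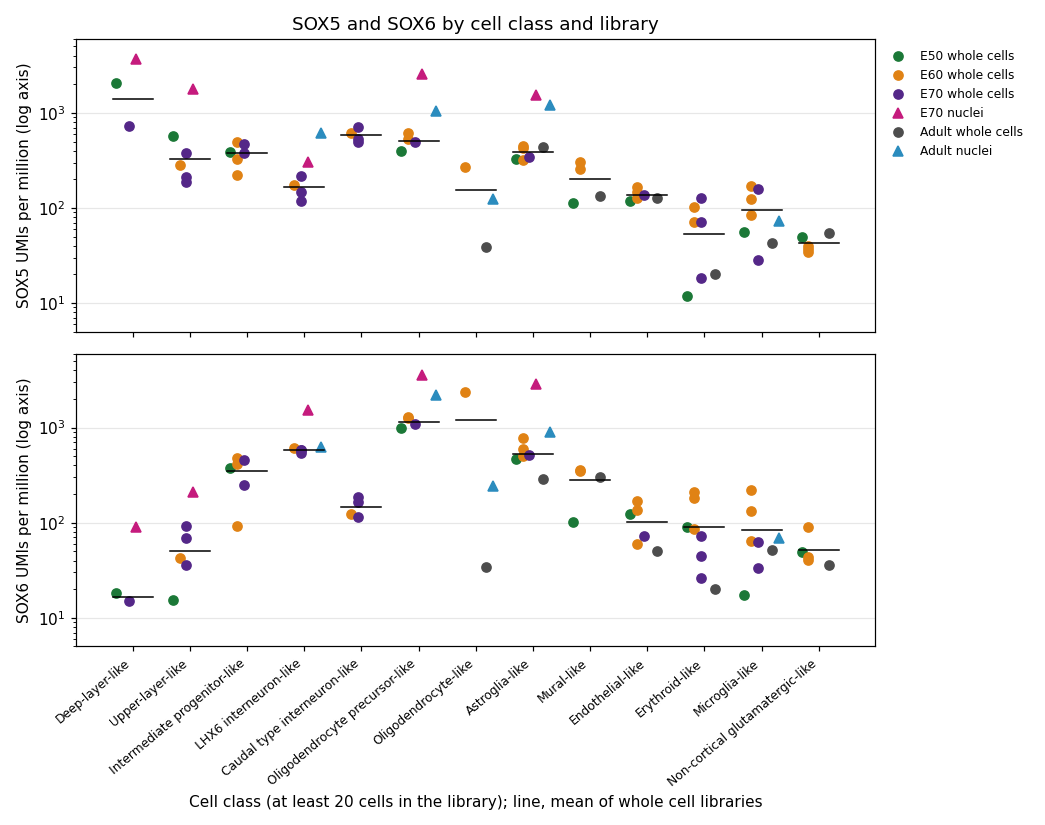
SOX5 (top) and SOX6 (bottom) in CPM on a log axis in each cell class; each point is 1 library with at least 20 cells of the class (circles, whole cells; triangles, nuclei; colours, stage) and the line is the mean of the whole cell libraries. SOX5 peaks in deep-layer-like cells (736 to 2064 in whole cells), where SOX6 has its lowest mean (16.7), and SOX6 is high in oligodendrocyte precursor-like cells (998 to 1277).

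SOX6 was higher in intermediate progenitor-like cells, the dividing or just post-mitotic precursors of cortical neurons known for EOMES and PAX6, than in the neurons of the 4 libraries that held both. It fell from 377 to 15.8 CPM at E50, from 413 to 42.3 CPM in E60 library 3, from 251 to 68.3 CPM in E70 library 2 and from 457 to 35.1 CPM in E70 library 3. In E60 libraries 1 and 2, which had no cortical neurons beside them, the class held 92.5 and 484 CPM of SOX6, with EOMES at 12.9 CPM and 0 UMIs against 96.9 to 200 CPM in the other 4 libraries. The progenitors were the higher in 4 of 4 libraries without overlap, by 10.7-fold (log2 difference, neurons minus progenitors, -3.42 ± 0.35 SE, 95% interval -4.20 to -2.63, edgeR adjusted p = 0.000122, 27.7% of 13794 genes called). With each library clustered on its own, which redrew the progenitor class, the difference was -2.55 and the adjusted p 0.0595. Limited to the progenitor subcluster led by EOMES, a choice made after seeing the data, it was -3.23 ± 0.22 over 3 libraries (edgeR adjusted p = 2.38e-05).

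The SOX6 level left in cortical neurons was low, and the gauge of free RNA did not settle how much of it lay above background. Without the cluster named above, microglia-like cells held 7.61 CPM of SOX6 at E50 (11 UMIs) beside 15.8 CPM in cortical excitatory-like cells. The values were 52.4 beside 42.3 CPM in E60 library 3, 63.3 beside 94 CPM in E70 library 1, 29.0 beside 35.1 CPM in E70 library 3 and 68.6 beside 121 CPM in the adult nuclei. The neurons were the higher in 4 of these 5 libraries, those with at least 20 cells of both. When every cell was thinned to 1000 UMIs, 3.91% of cortical excitatory-like cells kept a SOX6 UMI (23.5% unthinned, median depth 7365 UMIs). Of microglia-like cells 2.03% did without that cluster (10.4% unthinned, median depth 4855 UMIs) and 7.84% with it (24.9% unthinned, median depth 5103 UMIs), so the order of neurons and microglia-like cells turned on that cluster. Thinning left out 78 of 5630 neurons and 305 of 2652 microglia-like cells, the latter all adult nuclei.

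SOX5 did not share this step. It was lower in the neurons than in the progenitors in E60 library 3 (287 against 492 CPM), E70 library 2 (218 against 380) and E70 library 3 (219 against 469). At E50 it was higher in the neurons (832 against 383 CPM). Deep-layer-like cells were most numerous at E50, and the other cortical excitatory-like cells of that library held 580 CPM of SOX5. What the deep-layer-like cells added to the E50 difference was not tested. Over the 4 libraries the log2 difference was -0.39 ± 0.33 SE (95% interval -1.13 to 0.36, edgeR adjusted p = 0.432). Without the E50 library it was -0.84 ± 0.15 SE and passed the test (edgeR adjusted p = 0.00115).

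The progenitor subclusters differed in both genes. The dividing subcluster led by CENPF and TOP2A (392 cells) held SOX6 at 562 CPM and SOX5 at 343 CPM, and the subcluster led by EOMES and NEUROD4 (565 cells) held SOX6 at 268 CPM and SOX5 at 561 CPM. The remaining one, with HSD11B2 and NPTX1 among its leading genes (321 cells, 70.4% of them from E60 library 1), held SOX6 at 66.7 CPM and SOX5 at 329 CPM, with SOX6 at 60.7 CPM at E50, so the class was not uniform. These are descriptions of clustered cells. Of the other SOX genes in the contrast with neurons, SOX2 and SOX9, which mark neural progenitors, were lower in the neurons (log2 difference -4.36 ± 0.30 and -3.50 ± 0.24 SE), and SOX4 and SOX11, which mark young neurons, were higher (0.95 ± 0.21 and 1.04 ± 0.27). That makes 4 of 7 tested SOX genes, with a median of 0.38 beside 0.01 over all genes tested.

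Interneurons held both genes as a class, and here too SOX6 set them apart from cortical excitatory neurons. In interneuron-like cells SOX6 stood at 302 CPM at E50, 326 CPM in E60 library 3, 330, 415 and 332 CPM in the 3 E70 libraries, 952 CPM in the E70 nuclei and 412 CPM in the adult nuclei. Cortical excitatory-like cells held 15.8, 42.3, 94, 68.3, 35.1, 136 and 121 CPM in the same order. The interneuron-like cells were higher in 7 of 7 libraries, by 6.39-fold (log2 difference, excitatory minus interneuron, -2.68 ± 0.18 SE, edgeR adjusted p = 1.55e-09, 11.1% of 12190 genes called). SOX6 was the 18th gene by p-value, and SOX2, at -3.50 ± 0.21, was called alone among the 6 other SOX genes tested. For SOX5 the difference was 0.18 ± 0.26 SE (95% interval -0.36 to 0.72, edgeR adjusted p = 0.760), with the excitatory cells higher in 2 of 7 libraries.

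Within the interneurons SOX5 and SOX6 parted. In LHX6 interneuron-like cells, named from markers that include LHX6, SST, NPY, MAF and NKX2-1 as the lineage of the medial ganglionic eminence, SOX6 stood at 605 CPM in E60 library 3, 545, 587 and 580 CPM in the E70 libraries, 1543 CPM in the E70 nuclei and 622 CPM in the adult nuclei. The other interneuron-like cells, mostly of a caudal type with NR2F2 and ADARB2 in whole cells and of a subcluster that met neither name in nuclei, held 123, 181, 189, 113, 396 and 181 CPM. LHX6 interneuron-like cells were higher in 6 of 6 libraries, by 4.11-fold (log2 difference 2.04 ± 0.14 SE, 95% interval 1.73 to 2.34, edgeR adjusted p = 4.81e-07), and among the 6281 genes tested, 9.57% of them called, SOX6 had the lowest p-value.

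SOX5 went the other way. It stood at 176, 218, 119, 147, 301 and 610 CPM in LHX6 interneuron-like cells of those 6 libraries and at 612, 526, 540, 717, 974 and 555 CPM in the other interneuron-like cells. It was lower in the LHX6 class in 5 of 6 libraries, the exception being the adult nuclei with 52 UMIs in 21 cells against 43 UMIs in 29 cells. Of those 21 LHX6-class nuclei, 19 with all 52 SOX5 UMIs lay in the subcluster led by VIP, which also held 60 of the 75 LHX6-class nuclei at E70. The fitted log2 difference was -1.54 ± 0.22 SE (95% interval -2.0 to -1.09, edgeR adjusted p = 0.000152) and -1.87 ± 0.14 in the 4 whole cell libraries. Without library as a block neither gene was called (log2 -1.33 and 1.98, edgeR adjusted p = 0.372 and 0.128). With libraries clustered separately SOX5 was called at -1.71 and SOX6 was not, at 1.07 with an adjusted p of 0.697 in edgeR. In that setting the LHX6 class held 15.2 CPM of SOX6 at E50 (86 cells) against 228 in the other interneurons, and 1374 against 685 CPM in the E70 nuclei, and what each did to the call was not tested.

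The share of SOX6 among the UMIs of both genes put the pattern on 1 scale. It was 74.3% ± 12.5 (SD, n = 6 libraries) in LHX6 interneuron-like cells and 22.6% ± 5.98 in the other interneuron-like cells, a difference of 51.8 percentage points with the same direction in 6 of 6 libraries. An exact sign-flip test gave p = 0.0312, the smallest that 6 libraries allow, and 0.0938 adjusted over the 6 pairs of classes compared. With libraries clustered separately the difference was 30.8 points ± 55.7 (SD, n = 4 libraries), reversed in 1 library (exact p = 0.375). Between cortical excitatory-like and interneuron-like cells the shares were 13.9% ± 7.43 and 48.8% ± 7.61 (7 of 7 libraries, exact p = 0.0156, adjusted 0.0938), and between cortical excitatory-like and intermediate progenitor-like cells 13.1% ± 9.0 and 46.1% ± 4.58 (4 of 4 libraries, exact p = 0.125, adjusted 0.188).

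**Figure D2:**
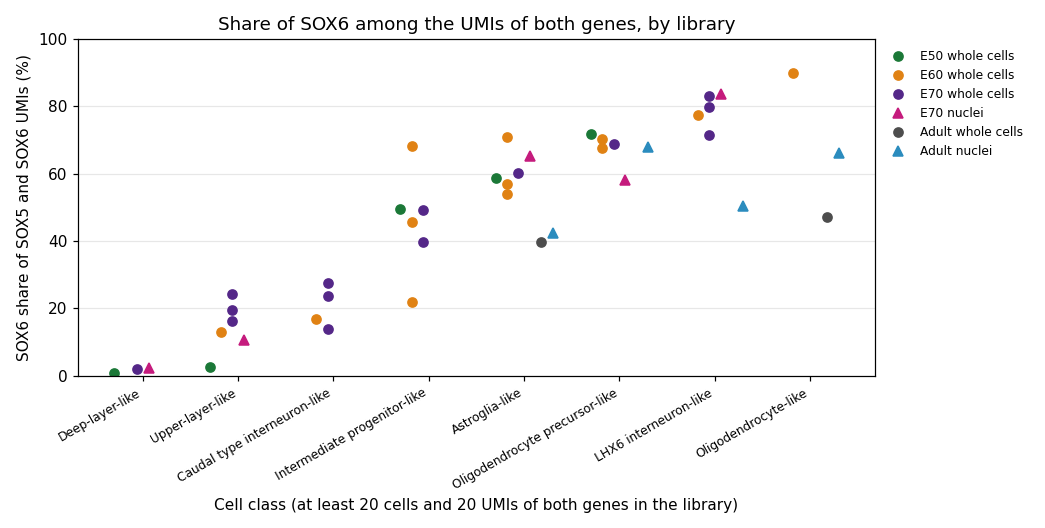
Share of SOX6 among the UMIs of SOX5 and SOX6 (percent) in 8 cell classes; each point is 1 library with at least 20 cells and 20 UMIs of both genes (circles, whole cells; triangles, nuclei; colours, stage). Shares lie near 0 in deep-layer-like cells, at 13.8 to 27.6% in caudal type interneuron-like cells of whole cell libraries, and at 71.4 to 83.2% in LHX6 interneuron-like cells of the whole cell libraries, with the adult nuclei lower at 50.5%.

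The interneuron subclusters ranged from a clear split to none. In the LHX6 subcluster led by CORT and NXPH1 (199 cells), SOX5 stood at 40.8, 84.2 and 58.6 CPM in E60 library 3 and E70 libraries 2 and 3, within the range of microglia-like cells, while SOX6 stood at 790, 648 and 554 CPM. In the caudal type subcluster led by DLX5, DLX1 and CRH (261 cells), SOX5 stood at 707, 529, 541 and 797 CPM in E60 library 3 and the 3 E70 libraries and SOX6 at 68.1, 78.6, 69.1 and 82.6 CPM. A second caudal type subcluster (91 cells) held more SOX6, 189 to 291 CPM in those 4 libraries. The other LHX6 subclusters were less clear. In the one led by VWC2 and NXPH1 (139 cells) SOX5 stood at 243 CPM and SOX6 at 535 CPM, with SOX5 at 314 CPM in E70 library 3, and in the smallest (28 cells, 27 of them from E60 library 3) SOX5 stood at 533 CPM and SOX6 at 302 CPM in that library. The LHX6 subcluster led by VIP and KCNC2 (114 cells, 52.6% of them E70 nuclei) held SOX6 at 981 CPM and SOX5 at 264 CPM. Leaving that subcluster out, a choice made after seeing the data since VIP marks the caudal lineage, gave log2 differences of -1.96 ± 0.13 SE for SOX5 and 2.18 ± 0.14 for SOX6 over 3 libraries.

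Other genes that differed in this contrast included LHX6 (log2 2.59 ± 0.35 SE), MAF (2.87 ± 0.24) and SATB1 (1.54 ± 0.38), 5 of 5 tested genes of the medial list being higher, and NR2F2 (-3.40 ± 0.38) and ADARB2 (-2.27 ± 0.21) among the 3 of 4 of the caudal list that were lower. Of those named here only SATB1, which acts downstream of LHX6 in mouse interneurons, did not also name a class. SATB1 was higher in the LHX6 class in each library except E70 library 2, at 125 against 133 CPM. In the E70 nuclei it stood at 883 against 61.8 CPM. The other interneuron-like cells of E70 library 2 also held LHX6 at 76.8 CPM, against 150 CPM in the LHX6 class.

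**Figure D3:**
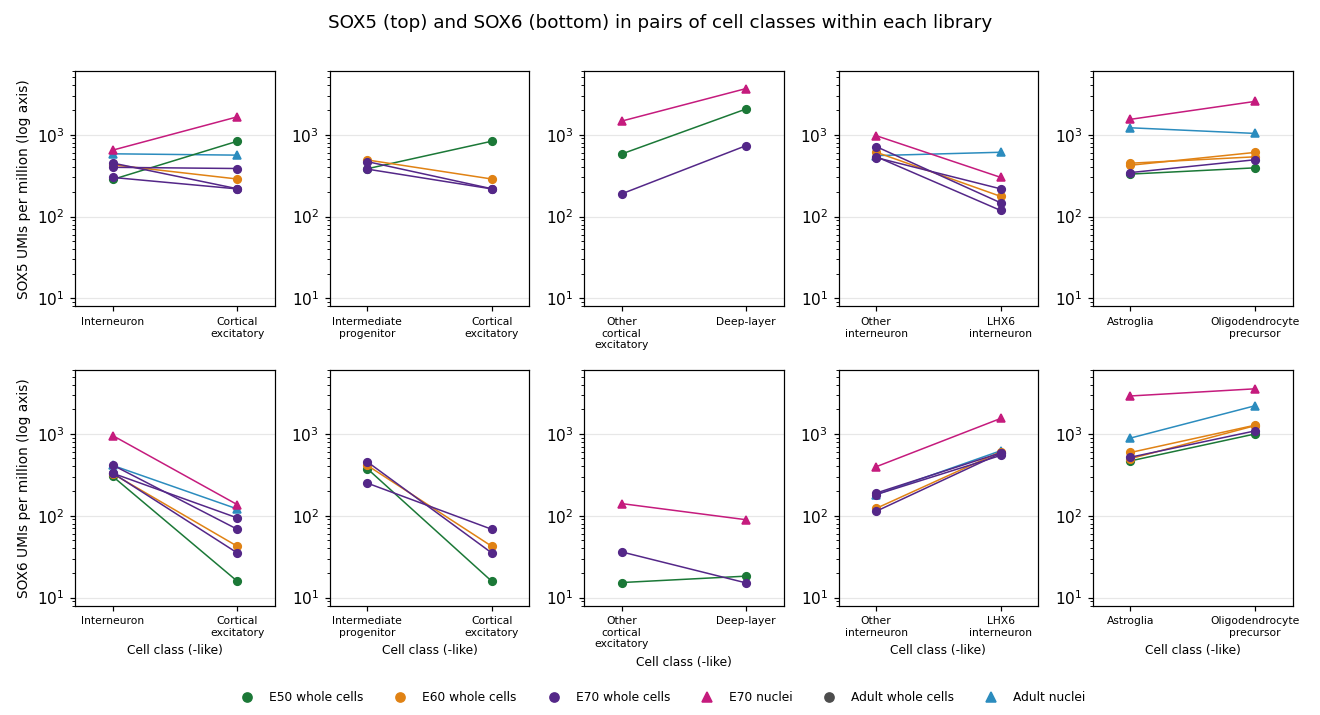
SOX5 (top row) and SOX6 (bottom row) in CPM on a log axis, in 5 pairs of cell classes; each line joins the 2 classes of 1 library (circles, whole cells; triangles, nuclei; colours, stage; at least 20 cells in both). SOX6 lines fall from interneuron-like and progenitor-like to cortical excitatory-like cells in every library, SOX5 rises to deep-layer-like cells in 3 of 3, and in interneurons the 2 genes cross over.

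Oligodendroglia held the highest SOX6. In oligodendrocyte precursor-like cells, marked by PDGFRA and OLIG1, SOX6 stood at 998 CPM at E50, 1277 and 1260 CPM in E60 libraries 1 and 2, 1087 CPM in E70 library 3, 3548 CPM in the E70 nuclei and 2204 CPM in the adult nuclei. Astroglia-like cells (astrocytes and radial glia) of these libraries held 467, 592, 497, 518, 2900 and 888 CPM. The precursors were higher in 6 of 6 libraries, 2.01-fold (log2 difference 1.00 ± 0.20 SE, 95% interval 0.59 to 1.42, edgeR adjusted p = 0.000699, 24.3% of 8886 genes called), and 0.83 ± 0.24 without E60 libraries 1 and 2 (edgeR adjusted p = 0.00630). Without library as a block it was 0.76 and not called (edgeR adjusted p = 0.891). With each library clustered on its own it was -0.14 (edgeR adjusted p = 0.936). The precursor class so drawn included 136 adult whole cells with SOX6 at 36.6 CPM and 58 cells of E60 library 2 at 192 CPM, and in E60 library 3 it held 620 CPM against 851 in astroglia, while E50, E60 library 1 and E70 library 3 held 1020, 1292 and 1196 CPM in precursors.

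SOX5 stood at 394, 537, 608, 494, 2549 and 1036 CPM in the precursors of those libraries and at 330, 448, 424, 345, 1540 and 1214 CPM in the astroglia-like cells. The precursors were higher in 5 of 6 libraries with the adult nuclei as the exception, and the difference did not pass the test (log2 0.33 ± 0.15 SE, 95% interval 0.01 to 0.64, edgeR adjusted p = 0.133). Without E60 libraries 1 and 2 it was 0.24 ± 0.23 (edgeR adjusted p = 0.580), and in the 4 whole cell libraries alone 0.37 ± 0.12 SE with an edgeR adjusted p of 0.0452. Of the other SOX genes SOX10, which drives the oligodendroglial lineage, was higher in the precursors (3.41 ± 0.27), as was SOX8 (0.96 ± 0.25), and SOX2 was lower (-0.56 ± 0.19), 3 of 4 tested.

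Within the lineage SOX6 differed between fetal and adult oligodendrocyte-like cells, the class named from MBP, MAG, CLDN11 and other myelin genes. SOX6 stood at 2376 CPM in E60 library 1 (106 cells, 1197 UMIs), 35 CPM in the adult whole cells (195 cells, 62 UMIs) and 245 CPM in the adult nuclei (1616 nuclei, 320 UMIs). In 2 libraries under the minimum of 20 cells it stood at 2297 CPM at E50 (12 cells) and 2461 CPM in E60 library 2 (18 cells). In E60 library 1 a SOX6 UMI was found in 98.1% of the cells (exact binomial 95% interval 93.4 to 99.8) and in the adult whole cells in 25.1% (19.2 to 31.8). Thinned to 1000 UMIs the shares were 83.3% at E50, 89.6% and 88.9% in E60 libraries 1 and 2, 4.62% in adult whole cells and 21.2% in adult nuclei. Thinning left out 1314 of 1949 cells of this class (67.4%), among them all 1042 adult nuclei of its largest subcluster. The thinned share of the adult nuclei therefore covers only the deeper ones. The adult whole cells lay under their microglia-like cells, at 51.9 CPM. The binomial intervals cover counting error only.

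The fetal cells of this class held myelin genes and little PDGFRA. In E60 library 1 they held MBP, the myelin basic protein gene, at 8095 CPM against 36.1 CPM in the precursors, and PDGFRA at 5.96 against 165 CPM. GPR17, a receptor of cells between precursor and myelinating oligodendrocyte, was at 861 CPM against 184, and at 12.8 CPM in the adult whole cells.

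Against the precursors of the same library, SOX6 in oligodendrocyte-like cells was 1.86-fold higher in E60 library 1 (counting interval 1.73 to 2.0) and 9.01-fold lower in the adult nuclei (7.80 to 10.4). These opposite steps gave a fitted log2 difference, precursor minus oligodendrocyte, of 0.95 ± 0.89 SE over the 2 libraries (95% interval -0.97 to 2.87, edgeR adjusted p = 0.961, 0.539% of 10955 genes called). SOX5 was lower in the oligodendrocyte-like cells of both, 270 against 537 CPM and 125 against 1036 CPM (log2 1.84 ± 0.58 SE, edgeR adjusted p = 0.244). SOX6 thus made up 89.8% of the UMIs of both genes in the oligodendrocyte-like cells of E60 library 1 and 70.4% in the precursors. In the adult nuclei the order was reversed, with 66.1% in oligodendrocyte-like cells and 68.0% in precursors. Oligodendrocyte-like cells of the adult whole cell library stood at 47.0%.

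In the fetal libraries SOX6 was high in both oligodendrocyte-like subclusters. In the subcluster led by BCAS1, GPR17 and ENPP6, genes of newly formed oligodendrocytes, SOX6 stood at 2553 CPM in E60 library 1 (59 cells) and 2838 CPM in E60 library 2 (11 cells), while SOX5 stood at 119 and 39.7 CPM. In the subcluster led by ERMN and MAG, genes of myelinating cells, SOX6 stood at 2186 CPM in E60 library 1 (47 cells), 34.6 CPM in the adult whole cells (195 cells) and 535 CPM in the adult nuclei (83 nuclei). The 2 subclusters that were almost wholly adult nuclei held 176 and 226 CPM of SOX6 beside 105 and 80.4 CPM of SOX5. Among whole cells of the 4 precursor subclusters SOX6 ranged from 733 CPM in the dividing one at E50 (28 cells, with UBE2C among its leading genes) to 1857 CPM in E60 library 1 (14 cells), and SOX5 from 256 to 818 CPM. Stage and library cannot be told apart for the fetal oligodendrocyte-like cells, which came mostly from E60 libraries 1 and 2.

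**Figure D4:**
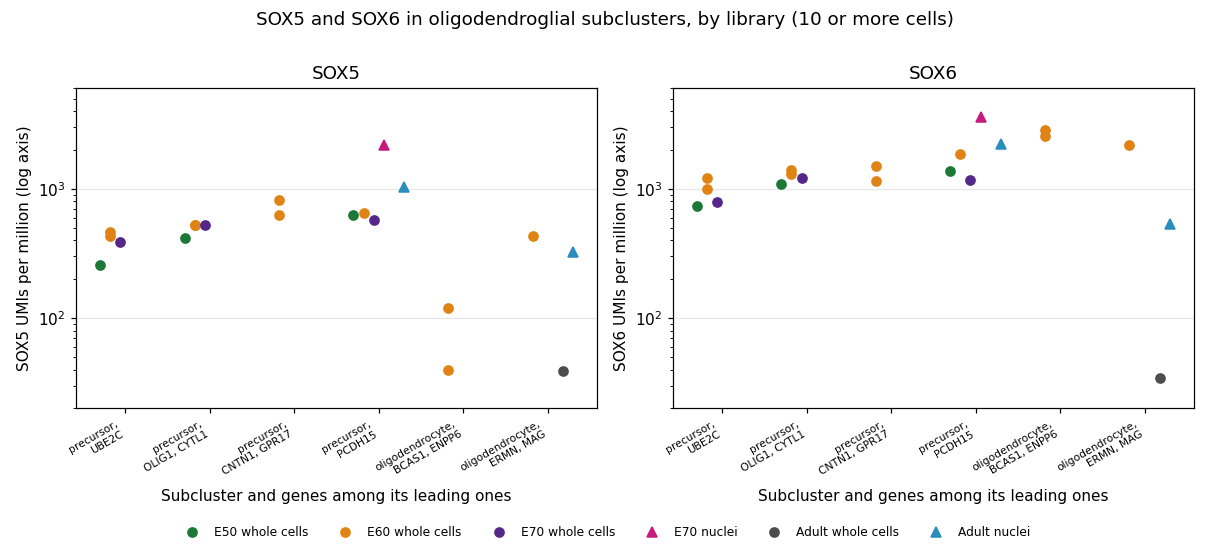
SOX5 (left) and SOX6 (right) in CPM on a log axis in 4 precursor-like and 2 oligodendrocyte-like subclusters, named by genes among their leading ones; each point is 1 library with at least 10 cells (circles, whole cells; triangles, nuclei; colours, stage). SOX6 reaches 2553 and 2838 in the BCAS1 and ENPP6 subcluster of the E60 libraries, where SOX5 drops to 119 and 39.7, and stands at 34.6 in adult whole cells.

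Astroglia-like cells held both genes at every stage. In whole cells SOX5 ranged from 323 to 448 CPM over 6 libraries (mean 385 ± 58.8 SD) and SOX6 from 290 CPM in the adult to 783 CPM in E60 library 3 (mean 525 ± 162 SD). Between E60 (3 libraries, 398 ± 66.6 CPM of SOX5 and 624 ± 146 of SOX6) and E70 (1 library, 345 and 518 CPM) neither gene was called. The log2 differences were -0.28 (95% interval -1.40 to 0.84) and -0.31 (-1.35 to 0.73), both with an edgeR adjusted p of 0.932, and without E60 libraries 1 and 2, a choice made after seeing the data that leaves 1 library a stage and no test, they were 0.095 and -0.60. In the test 0% of 14141 genes were called (239 at an unadjusted p under 0.05, and 3 by DESeq2). In interneuron-like cells, with 1 library at E60 and 3 at E70, SOX5 stood at 429 against 383 ± 76.2 CPM and SOX6 at 326 against 359 ± 48.5 CPM. Those log2 differences were -0.16 (-1.24 to 0.92) and 0.14 (-0.92 to 1.21), with edgeR adjusted p-values of 0.974 and 0.980 and again 0% of 12598 genes called (208 at an unadjusted p under 0.05, and 0 by DESeq2). Where a stage had 1 library, that library was taken to vary as the others did, and the intervals leave room for changes of more than 1.5-fold in either direction.

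A large unnamed cluster led by KCNIP3, OLIG1, IGFBP5 and EGFR (1015 cells) held 449 ± 75.7 CPM of SOX5 and 476 ± 84.8 of SOX6 (SD, n = 7 whole cell libraries), both near the astroglial means.

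Whether the 2 genes were in the same cells was read after thinning to 1000 UMIs. In oligodendrocyte precursor-like cells 31.9% of 810 cells held both, beside 30.1% given by the product of the single shares (43.3% and 69.5%). Astroglia-like cells gave 14.4% beside 12.7%, and intermediate progenitor-like cells 7.36% beside 8.0%. In interneuron-like cells as a whole 5.75% held both beside 8.03%, and within the LHX6 class 5.47% beside 6.59%. Deep-layer-like cells gave 1.72% beside 1.98%. Oligodendrocyte-like cells gave 6.77% beside 3.79%, and microglia-like cells, the gauge of free RNA, 1.28% beside 0.57%. A share above the product was thus not particular to precursors and astroglia. At this depth a cell holding a transcript often shows none. The counts therefore show cells with UMIs of both genes in each of these classes, microglia-like cells included. Free RNA can add to them, so a cell with both UMIs need not have expressed both genes. In deep-layer-like cells 7 of 407 held both, and 2.46% held a SOX6 UMI. Of microglia-like cells outside the cluster whose second-best class was astroglia, 2.03% did. Nor do the counts bear on whether single neurons exclude one of the genes.

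Over the classes, the order of SOX5 in whole cells ran, among the classes described here, from deep-layer-like (mean 1400 CPM, n = 2 libraries) through caudal type interneuron-like (586), oligodendrocyte precursor-like (508), astroglia-like (385), intermediate progenitor-like (380) and upper-layer-like (326) to LHX6 interneuron-like cells (165). Endothelial-like (137), microglia-like (95.2), erythroid-like (53.3) and non-cortical glutamatergic-like cells (43.2) followed. Of the neighbours in the full order of 16 classes only the first pair had ranges without overlap. For SOX6 the order ran from oligodendrocyte-like (1205 ± 1656 SD, n = 2) and oligodendrocyte precursor-like (1155) through LHX6 interneuron-like (579), astroglia-like (525), intermediate progenitor-like (346) and mural-like (279) to caudal type interneuron-like cells (147), and ended with deep-layer-like cells (16.7). The precursors and the LHX6 class did not overlap, and neither did fibroblast-like (48.2) and granule or Purkinje type-like cells (19.6), while all other neighbours did. Erythroid-like cells, in which SOX6 is known to silence embryonic globin genes, held 91.0 ± 69.4 CPM (SD, n = 8 libraries). That overlaps the 83.5 ± 71.1 CPM of all microglia-like cells. Without the cluster whose second-best class was astroglia, microglia-like cells held 28.7 CPM of SOX6 with all libraries summed. Erythroid-like cells were above them in E60 library 2 (209 against 31.6 CPM) and below them in the adult whole cells (20.2 against 51.7 CPM). The difference was not tested.

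Across 85 combinations of class and library, SOX5 and SOX6 had a Spearman correlation of 0.50. The 5 genes most like SOX5 among 8326 compared were CTNND2 (0.84), PPM1E, CDH10, ADGRB3 and ABI2 (0.79 each). Those most like SOX6 were NPAS3 (0.79), POLR3B (0.77), CAPS2 (0.76), SH3D19 (0.74) and IKZF2 (0.73). The combinations share libraries, depth and the split between cells and nuclei, so these values are descriptions. Of the 6 cartilage matrix genes that SOX5 and SOX6 are known to serve in chondrocytes, only 0 to 3 had counts enough to be tested in a contrast. The 1 call was HAPLN1, lower in cortical excitatory-like than in intermediate progenitor-like cells (log2 -2.19 ± 0.23 SE). It was 1 of the 2 tested there, in a contrast that called 27.7% of 13794 genes, so the call says little about the list.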

How the data were processed

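Counts of UMIs per gene and cell were used as deposited by the authors, who sequenced 10x Genomics libraries and, per the labels and methods, used Cell Ranger to map reads to pre-mRNA of Sscrofa11.1 with Ensembl genes, so that intronic reads count. No column of another sample was present. Cells were normalised to 10000 UMIs, and 3000 variable genes without 155 held-out genes (every SOX gene and listed gene) were merged by mutual nearest neighbours and clustered (resolution 1.6, then 1.0 to 1.4 within neurons and oligodendroglia). Subclusters whose leading genes went against a name were left unnamed, a rule set after the clusters were seen. The members, lists and tests were chosen with earlier results of these data known. Doublets were scored by simulated pairs, and the 1077 highest (0.8% expected per 1000 cells) were kept in the main results and left out in an alternative.

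UMIs were summed per library and class with at least 20 cells and tested with edgeR 4.0.16 (TMM, filterByExpr, quasi-likelihood, library as a block between classes, Benjamini-Hochberg over all genes). The SE is the log2 difference over the root of F. CPM are UMIs per 1000000 UMIs of the class in that library. Named genes followed a rule: SOX5 and SOX6, the 5 genes most correlated with each, and leading members of fixed lists, of which the erythroid list had no call except BCL11A in the progenitor contrast and HBB and BCL11A in the precursor against astroglia contrast. On simulated data for excitatory against interneuron cells (12190 genes), 40% of 2-fold and 88% of 4-fold changes were recovered. For the E70 against E60 interneuron contrast (12598 genes) these were 0% and 21%. DESeq2 1.42.0 and other settings were alternatives.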

Additional observations from a re-analysis of the deposited data

Results flagged for a closer look

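In 3 comparisons the 2 groups of libraries moved in opposite directions beyond counting error, and the differences between them were not tested, most groups having 1 library. SOX5 in cortical excitatory-like minus interneuron-like cells was 1.55 (log2) at E50 and 1.35 in the E70 nuclei but -0.58 at E60, differences of 2.13 and 1.93. SOX5 in cortical excitatory-like minus intermediate progenitor-like cells was 1.12 at E50, -0.77 at E60 and a mean of -0.95 at E70, differences of 1.89 and 2.07. Deep-layer-like cells made up 309 of 1728 cortical excitatory-like cells at E50 and 37 of 1525 in E70 library 3, and their part in this was not tested. SOX6 in oligodendrocyte precursor-like minus oligodendrocyte-like cells was 3.17 in the adult nuclei and -0.90 at E60, a difference of 4.07, where E60 is library 1, which held no cortical neurons.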

How the results depend on the processing

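Of 314 alternatives over 40 results, 285 counted as unchanged. For tested differences that means the same direction and side of the threshold. For mean levels it means a value within the SD of the main one, and for differences left without a test within its SE or SD. A wide SD thus lets a large move in a level count as unchanged. With each library clustered on its own, SOX6 in neurons minus progenitors was -2.55 and in LHX6 minus other interneurons 1.07, neither called any longer. Precursors minus astroglia reversed for SOX5 (-0.061), SOX6 (-0.14) and the SOX6 share (-1.82 points), deep-layer minus other neurons for SOX6 (0.11) and E70 minus E60 interneurons for SOX6 (-0.038), none called, and the mean SOX6 level of caudal type cells moved to 204 CPM. The deep-layer means went from 2154 to 1123 ± 1261 CPM (SD, 6 libraries) for SOX5, from 40.9 to 77.4 CPM for SOX6, the progenitor mean of SOX6 from 346 to 228 CPM and the oligodendrocyte mean of SOX5 from 145 to 259 CPM. The cause was not tested. Without library as a block, calls were lost for SOX5 in deep layers (1.47), SOX5 and SOX6 in LHX6 cells (-1.33 and 1.98) and SOX6 in precursors (0.76), and SOX6 in precursors minus oligodendrocytes was -0.024. SOX5 in excitatory minus interneuron cells was -0.13 with at least 50 cells and -0.13 in whole cells only. SOX5 in precursors minus astroglia passed with at least 50 cells and in whole cells only (0.37 in both). Precursors minus oligodendrocytes, with 1 library left and no test, was 0.99 for SOX5 and -0.90 for SOX6 in whole cells only and 3.05 and 3.17 without E60 libraries 1 and 2.

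Leaving out 1 library at a time gave, for SOX5 and SOX6, -0.13 to 0.34 and -2.83 to -2.58 in excitatory minus interneuron cells, -0.84 to -0.12 and -3.80 to -2.99 against progenitors, 1.41 to 1.88 and -0.94 to -0.30 in deep layers, -1.82 to -1.38 and 1.94 to 2.14 in LHX6 cells, 0.23 to 0.37 and 0.87 to 1.25 in precursors against astroglia, and 0.99 to 3.05 and -0.90 to 3.17 against oligodendrocytes. For E70 minus E60 they were -0.45 to -0.16 and -0.39 to -0.18 in astroglia and -0.32 to -0.05 and -0.021 to 0.23 in interneurons. The SOX6 share kept its direction except between precursors and oligodendrocytes (-19.4 to 1.92 points). Calls over all genes without library as a block were 71 in place of 1352 (excitatory against interneuron), 807 in place of 3824 (progenitors), 0 in place of 388 (deep layers, 353 by DESeq2), 4 in place of 601 (LHX6) and 177 in place of 2157 (precursors), and 3129 in place of 0 for E70 against E60 interneurons without E70 library 3. No paired analysis was possible because the E60 and E70 libraries with enough cells of a class shared fewer than 2 replicate numbers, and no label ties those numbers. With few cells, nuclei and microglia-like cells in some libraries, levels near 50 CPM could not be told from free RNA.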
